A study of Mus musculus with 12 samples.

Results

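The constitutive proteasome subunits are the products of the Psma, Psmb, Psmc and Psmd genes, which build the 26S proteasome of most cells. Members were taken by symbol alone: Psma, Psmc or Psmd with a number, or Psmb1 to Psmb7, with the inducible subunits Psmb8, Psmb9 and Psmb10 and pseudogene symbols left out. Of 24562 genes in the count table, 35 fitted this rule. All 35 had a mean of at least 10 counts over the libraries, and all 35 entered the tests. The lowest mean was 21.9 counts, for Psma8, and the highest 7178 counts, for Psmd8. Psmc3ip, whose symbol goes on after the digit and which encodes a recombination factor, was left out.

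RNA had been sequenced from macrophages of the peritoneum, resident phagocytes of the abdomen, taken from female mice on a high fat diet (HFD) or a chow diet. The cells had been given lipopolysaccharide (LPS), an outer membrane lipid of Gram-negative bacteria sensed by Toll-like receptor 4, for 24 h or 0 h. The 12 libraries form 4 groups of 3: HFD 24 h, HFD 0 h, chow 24 h and chow 0 h. The labels used here give no strain, genotype, age, length of the diet or LPS dose. As no labelled group spent 24 h without LPS, its effect and that of elapsed time cannot be told apart, and the difference between 24 h and 0 h is called the LPS difference here.

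The proteasome degrades proteins that carry ubiquitin chains. Its 20S core is a barrel of an outer alpha ring (Psma1 to Psma7) on either side of an inner pair of beta rings (Psmb1 to Psmb7), and the active sites sit on Psmb5, Psmb6 and Psmb7. The 19S regulatory particle caps the core: a ring of AAA ATPases (Psmc1 to Psmc6) unfolds substrates, Psmd1, Psmd2 and Psmd4 complete the base, and a lid that holds the deubiquitinase Psmd14 removes the ubiquitin. Psmd5, Psmd9 and Psmd10 are chaperones that help assemble the base and are not part of the finished particle. In macrophages exposed to interferon, Psmb8, Psmb9 and Psmb10 take the places of Psmb5, Psmb6 and Psmb7 in newly made cores, a form known as the immunoproteasome, which favours peptides that bind MHC class I.

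Libraries held 2360244 counts (HFD 0 h replicate 3) to 20688308 counts (replicate 3 of HFD 24 h), and the second lowest had 9135057 (replicate 2 of HFD 0 h). HFD 0 h replicate 3 also stood apart on the second principal component, at -82.16, against -5.53 to 23.51 for the other 11 libraries, so the HFD counts and medians, and the values of several members that it moved, are given with and without it. A lane tag stands in the descriptions of HFD 24 h replicate 1 and of all 3 chow 24 h libraries, and in no 0 h library. Macrophage markers were high in every library: the 8 genes of the list summed to 10194.1 to 12720.1 CPM (counts scaled to library size, with TMM factors) in HFD 24 h and 14187.2 to 15765.3 CPM in HFD 0 h, and to 10093.8 to 11364.1 CPM in chow 24 h and 14377.7 to 15690.0 CPM in chow 0 h. The 10 stromal and mesothelial markers summed to 1020.8 to 1149.6 CPM in HFD 24 h and 728.0 to 1433.8 CPM in HFD 0 h, and to 1071.9 to 3148.4 CPM in chow 24 h and 808.9 to 2557.3 CPM in chow 0 h. The 6 B cell markers summed to 115.9 to 136.6 CPM in HFD 24 h and 195.8 to 243.6 CPM in HFD 0 h, and to 79.5 to 122.9 CPM in chow 24 h and 155.5 to 253.0 CPM in chow 0 h. The 4 large peritoneal macrophage markers summed to 34.8 to 65.2 CPM in HFD 24 h and 85.0 to 178.1 CPM in HFD 0 h, and to 50.1 to 61.8 CPM in chow 24 h and 91.5 to 150 CPM in chow 0 h. The 5 neutrophil markers summed to 21.1 to 32.6 CPM in HFD 24 h and 11.0 to 13.5 CPM in HFD 0 h, and to 25.8 to 52.9 CPM in chow 24 h and 8.4 to 9.81 CPM in chow 0 h. The 4 eosinophil markers stayed at 25.1 CPM or less, the 5 mast cell markers at 28 CPM or less and the 5 T and NK cell markers in the table at 4.42 CPM or less, and no marker in the table was at 0 in all libraries. All of these sums but the stromal, mast cell and T and NK ones kept 24 h and 0 h libraries apart in both diets, and their part in the results below was not tested. In such bulk RNA, fewer cells of a type and less RNA per cell cannot be told apart.

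Proteasome genes are known for shared promoter motifs, so 6 windows are shown for members whose values are described below, to let their motifs be seen beside those values. RefSeq (GRCm38.p6, the assembly of mm10) gave a window of 300 bases, 250 before and 50 after the transcription start, for 28 of the 35 members, in 30 windows. Psma8, Psmb1, Psmb2, Psmb7, Psmc3, Psmd3 and Psmd7 had none. For Psmd2 and Psmb6 the start used lies inside the gene's listed span, which begins at chr16:20651122 and chr11:70525324. Capitals mark exact matches on either strand to an ETS factor site (CCGGAAG), to the CCAAT box bound by NF-Y (CCAAT), or to an antioxidant response element (TGACNNNGC), the kind of element that Nfe2l1 and Nfe2l2 bind. The windows are printed along the gene's own strand: Psmd11 from chr11:80428365-80428664 (plus strand), Psmd10 from chrX:140956662-140956961 (minus), Psma1 from chr7:114276067-114276366 (minus), Psmb5 from chr14:54617946-54618245 (minus), Psmb6 from chr11:70525107-70525406 (plus) and Psmd2 from chr16:20651402-20651701 (plus).
Psmd11: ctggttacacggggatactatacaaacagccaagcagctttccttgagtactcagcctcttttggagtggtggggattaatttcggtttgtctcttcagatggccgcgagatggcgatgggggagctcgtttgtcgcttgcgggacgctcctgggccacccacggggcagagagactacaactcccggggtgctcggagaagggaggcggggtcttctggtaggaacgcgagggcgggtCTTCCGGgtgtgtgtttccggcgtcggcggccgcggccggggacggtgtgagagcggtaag
Psmd10: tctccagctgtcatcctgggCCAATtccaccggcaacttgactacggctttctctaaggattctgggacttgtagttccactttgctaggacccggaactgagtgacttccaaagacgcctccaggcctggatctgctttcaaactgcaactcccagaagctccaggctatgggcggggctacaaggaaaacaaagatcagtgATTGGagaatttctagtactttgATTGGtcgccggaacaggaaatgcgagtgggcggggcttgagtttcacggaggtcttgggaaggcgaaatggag
Psma1: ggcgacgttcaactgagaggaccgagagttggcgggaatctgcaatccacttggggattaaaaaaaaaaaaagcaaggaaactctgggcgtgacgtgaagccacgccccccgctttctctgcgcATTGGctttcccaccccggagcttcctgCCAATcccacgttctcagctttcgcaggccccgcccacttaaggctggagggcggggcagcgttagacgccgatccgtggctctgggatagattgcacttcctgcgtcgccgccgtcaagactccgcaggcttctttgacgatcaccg
Psmb5: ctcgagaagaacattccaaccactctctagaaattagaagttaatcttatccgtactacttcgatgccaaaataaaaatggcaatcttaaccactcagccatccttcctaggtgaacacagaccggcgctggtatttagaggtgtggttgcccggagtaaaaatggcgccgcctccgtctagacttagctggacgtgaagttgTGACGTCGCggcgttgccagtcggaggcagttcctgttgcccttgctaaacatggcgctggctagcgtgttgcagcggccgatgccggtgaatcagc
Psmb6: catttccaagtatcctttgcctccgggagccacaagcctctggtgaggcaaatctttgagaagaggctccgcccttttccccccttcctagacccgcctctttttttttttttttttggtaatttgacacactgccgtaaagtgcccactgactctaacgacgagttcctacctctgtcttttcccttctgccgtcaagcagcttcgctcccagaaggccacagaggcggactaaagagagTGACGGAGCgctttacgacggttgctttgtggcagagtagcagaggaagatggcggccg
Psmd2: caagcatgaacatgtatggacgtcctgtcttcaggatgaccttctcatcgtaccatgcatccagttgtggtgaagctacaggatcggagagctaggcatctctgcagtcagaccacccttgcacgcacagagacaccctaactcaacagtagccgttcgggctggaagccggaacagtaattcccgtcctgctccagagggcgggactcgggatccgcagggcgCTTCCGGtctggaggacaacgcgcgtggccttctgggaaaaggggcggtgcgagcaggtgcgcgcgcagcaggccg
The ETS letters stood in 11 of the 30 member windows (36.7%), which belong to 10 genes, against 8.86% of all 32851 windows and 17.3% of the 12760 windows of tested genes. The antioxidant response letters stood in 5 member windows (16.7%), those of Psmb5, Psmb6, Psmc6, Psmd9 and Psmd12, against 12.4% of all windows and 14.5% of those of tested genes. The CCAAT letters, in 11 member windows (36.7%), were close to the 37.4% of all windows and 37.7% of those of tested genes. The letters of an interferon-stimulated response element stood in 3 member windows (10%), of Psmb3, Psmd4 and Psmd9, against 3.44% of all windows and 3.24% of those of tested genes. CCAAT and ETS matches share bases in Psma6 and Psmc2. These are descriptions of letters in a fixed window, with no test, and a match is not a bound site.

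With LPS, most constitutive subunit genes were higher in both diets and no member was lower. In HFD macrophages 23 of 35 members were higher and 0 lower (edgeR quasi-likelihood test, Benjamini-Hochberg adjusted p under 0.05), against a background of 12.7% of the 12641 genes tested that were called higher and 12% called lower. In chow macrophages 22 of 35 were higher and 0 lower, against 13.7% of all genes higher and 12.9% lower. The median log2 fold change of the members was 0.56 in HFD and 0.62 in chow, where the median over all genes tested was 0.00 in both. Among the 6410 genes that averaged at least 20 CPM, 17.4% in HFD and 18.4% in chow were called higher. The 3 HFD 24 h libraries all lay above the 3 HFD 0 h libraries for 25 members, against 18.2% of all genes, and all below for 1, Psmd8, against 17.2%. For 28 members the chow 24 h libraries all lay above the chow 0 h libraries, against 22.5% of all genes, and for 0 all below, against 22.9%.

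Added together, the members' counts were 0.411% to 0.458% of the TMM-scaled library total in HFD 24 h and 0.294% to 0.327% in HFD 0 h. In chow they were 0.448% to 0.500% of it at 24 h and 0.318% to 0.329% at 0 h. The 24 h and 0 h libraries did not overlap in this sum in either diet. The LPS differences were mostly under 2-fold: 6 of the called members in HFD and 5 in chow reached 2-fold, and Psma5, Psmd10 and Psmd11 reached it in both. Without HFD 0 h replicate 3, Psma2, Psmb3 and Psmb7 no longer reached it in HFD, at log2 0.95, 0.92 and 0.99. Psma5, Psmd10 and Psmd11 still did, at 1.16, 1.22 and 1.03.

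**Figure D1:**
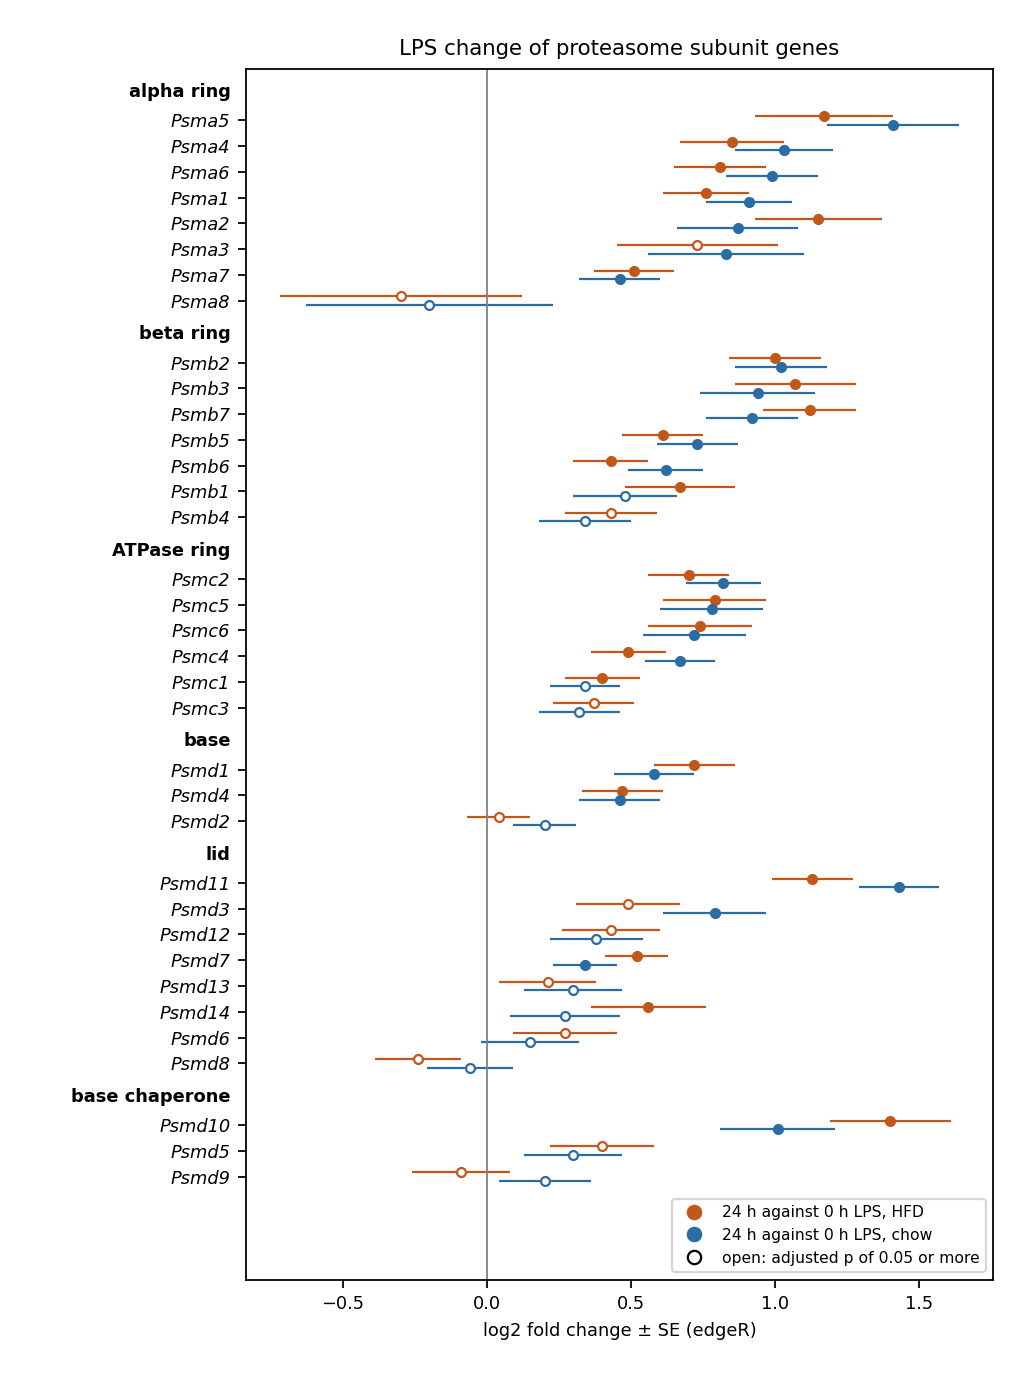
Log2 fold change of 24 h against 0 h LPS for the 35 members by role (points, edgeR; bars, SE), in HFD (orange) and chow (blue) macrophages, with filled points for an adjusted p under 0.05. Core and ATPase genes other than Psma8 sit between 0.32 and 1.41, and Psmd2, Psmd8, Psmd9 and Psma8 lie at 0.20 or below in both diets.

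The alpha ring had the highest median. Of its 7 genes other than Psma8, 6 were higher in HFD and 7 in chow, with median log2 fold changes of 0.81 and 0.91. Psma5 (alpha5; chr3:108256926-108279952) changed most. It had 20.8, 24.0 and 17.5 CPM in HFD 24 h and 11.6, 7.01 and 8.99 CPM in HFD 0 h. In chow it had 18.9, 25.3 and 33.7 CPM at 24 h and 9.43, 10.9 and 9.06 CPM at 0 h. Every 24 h library exceeded every 0 h library of its diet, and the chow 24 h libraries were the most spread. The log2 fold changes were 1.17 ± 0.24 in HFD (SE, edgeR adjusted p = 0.00162) and 1.41 ± 0.23 in chow (adjusted p = 0.000163).

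Psma6 (alpha1) and Psma4 (alpha3) were the other alpha genes with the smallest adjusted p. Psma6 stood at 149.1, 179.9 and 160.2 CPM in HFD 24 h against 80.3, 113.1 and 84.5 CPM in HFD 0 h. Its chow libraries held 160.4, 161.6 and 228.7 CPM at 24 h against 94.2, 87.6 and 95 CPM at 0 h. The groups did not overlap in either diet, with log2 fold changes of 0.81 ± 0.16 in HFD (adjusted p = 0.00122) and 0.99 ± 0.16 in chow (adjusted p = 0.00016). Psma4 had 71.2, 98.5 and 90.6 CPM in HFD 24 h against 38.7, 56.0 and 50.8 CPM in HFD 0 h. In chow, Psma4 had 96.1, 91.1 and 128.5 CPM at 24 h and 50.6, 49.0 and 55.4 CPM at 0 h. Its log2 fold changes were 0.85 ± 0.18 (adjusted p = 0.00151) in HFD and 1.03 ± 0.17 (adjusted p = 0.000198) in chow, again without overlap of groups. An exon of Psma4 shares 114 bases with AY074887 on the other strand, and as the strand setting of the counting is not given, reads of that stretch cannot be told apart.

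The remaining alpha genes followed in the same direction. Psma1 rose by log2 0.76 ± 0.15 in HFD (adjusted p = 0.0012) and 0.91 ± 0.15 in chow (adjusted p = 0.000216), and Psma2 by 1.15 ± 0.22 (adjusted p = 0.00074) and 0.87 ± 0.21 (adjusted p = 0.00539). Psma7 rose less, by 0.51 ± 0.14 in HFD (adjusted p = 0.0123) and 0.46 ± 0.14 in chow (adjusted p = 0.0187). In HFD it no longer passed once replicate 2 of HFD 24 h was left out (adjusted p = 0.05), nor in chow once replicate 2 or 3 of chow 0 h or replicate 3 of chow 24 h was (highest adjusted p = 0.101). Psma3 stood at 0.73 ± 0.28 in HFD (adjusted p = 0.0682) and passed in chow, at 0.83 ± 0.27 (adjusted p = 0.0301). That call ended without any 1 chow 0 h library or without chow 24 h replicate 3 (highest adjusted p = 0.163). Psma8, a paralog of Psma7 known from testis, had group means of 2.09 CPM in HFD 24 h and 2.66 CPM in HFD 0 h, and 1.27 CPM in chow 24 h and 1.44 CPM in chow 0 h, and its groups overlapped in both LPS comparisons (adjusted p = 0.668 in HFD and 0.791 in chow).

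**Figure D2:**
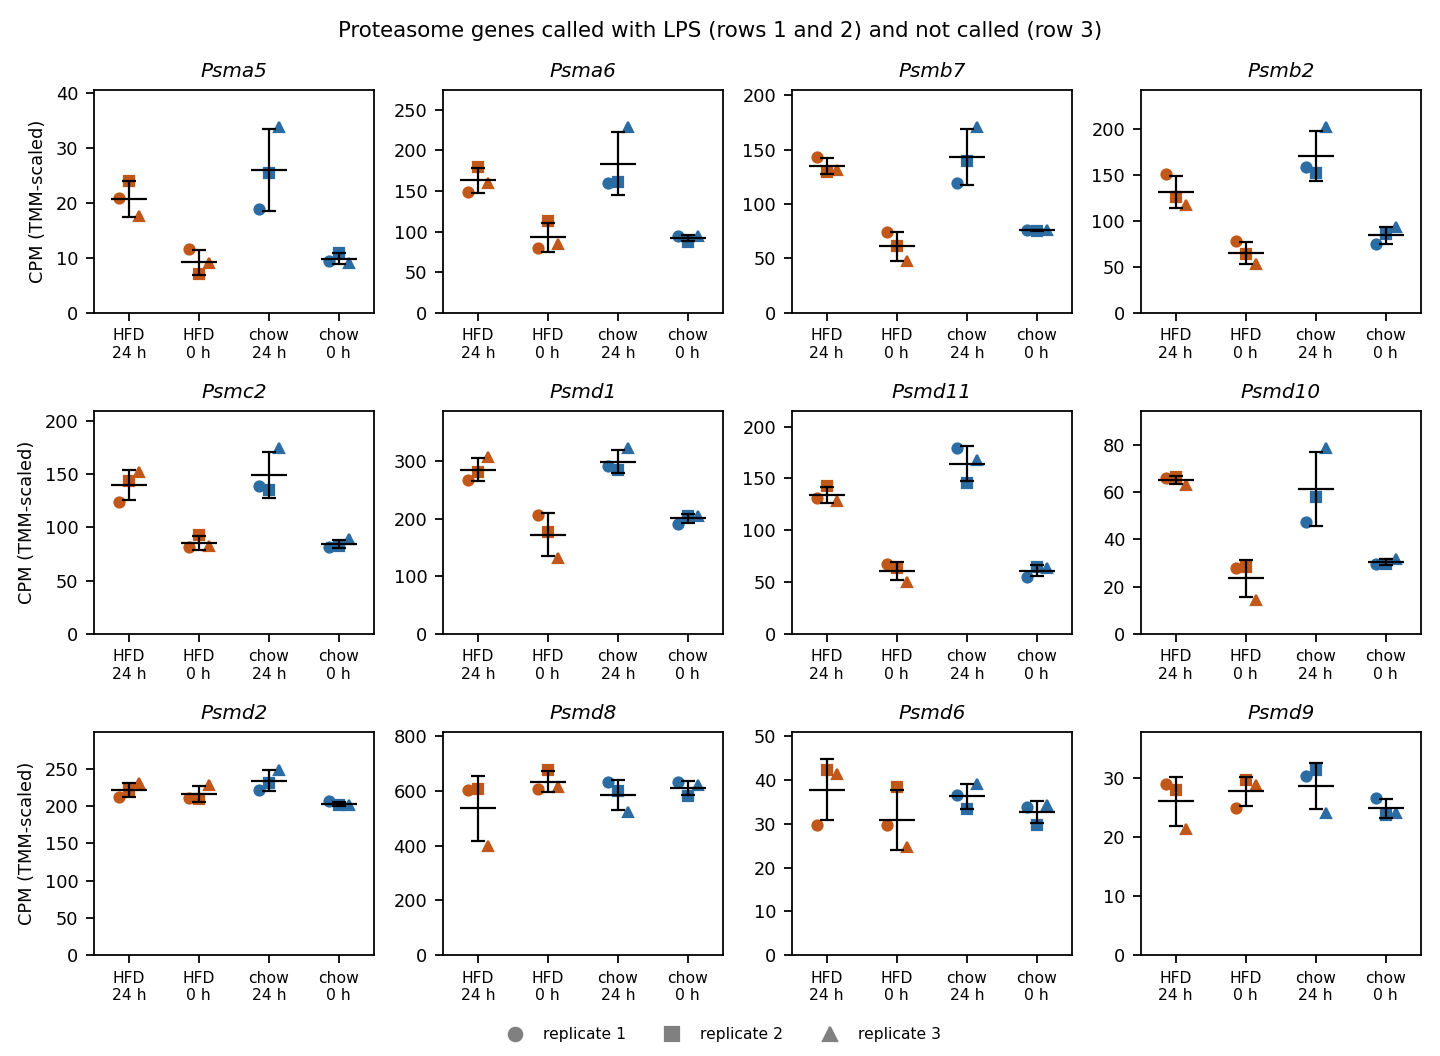
CPM (TMM-scaled) of 12 proteasome genes in each library, by group and replicate, with group means and SD. In the 8 genes of rows 1 and 2 the 24 h libraries lie above the 0 h libraries of the same diet, and in Psmd2, Psmd8, Psmd6 and Psmd9 (row 3) no comparison with LPS passed the test.

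In the beta ring 6 of 7 genes were higher in HFD and 5 of 7 in chow, with medians of 0.67 and 0.73. All 3 catalytic subunit genes passed in both diets in the main test. With the lane tag as a covariate their chow calls were lost (edgeR adjusted p = 0.0958 for Psmb7, 0.297 for Psmb5 and 0.401 for Psmb6). Psmb7, which carries the trypsin-like site, had 143.0, 129.5 and 131.1 CPM in HFD 24 h against 74.1, 61.3 and 47.2 CPM in HFD 0 h. In chow it had 119.0, 139.3 and 170.5 CPM at 24 h against 76.1, 75.2 and 75.6 CPM at 0 h. The groups did not overlap, and the log2 fold changes were 1.12 ± 0.16 in HFD (adjusted p = 4.66e-05) and 0.92 ± 0.16 in chow (adjusted p = 0.000258). Without HFD 0 h replicate 3, the HFD value was 0.99 ± 0.15 (edgeR adjusted p = 0.000173). An exon of Psmb7 shares 405 bases with Nek6 on the other strand. Nek6 had a mean of 807 counts, against 1405.67 for Psmb7. Reads of that stretch cannot be told apart, which also bears on the Psmb10 to Psmb7 ratio below.

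Psmb5, which carries the chymotrypsin-like site and has the antioxidant response letters TGACGTCGC in its window, had 72.9, 63.9 and 54.3 CPM in HFD 24 h and 45.1, 41.5 and 37.3 CPM in HFD 0 h. The chow libraries held 62.2, 71.4 and 57.1 CPM at 24 h and 39.5, 37.1 and 38.1 CPM at 0 h. Its groups did not overlap in either diet, with log2 fold changes of 0.61 ± 0.14 in HFD (adjusted p = 0.00426) and 0.73 ± 0.14 in chow (adjusted p = 0.000765). Psmb6, the caspase-like subunit, with TGACGGAGC in its window, had 401.0, 364.3 and 301.9 CPM in HFD 24 h and 269.2, 274.7 and 248.6 CPM in HFD 0 h. In chow, Psmb6 had 391.3, 381.9 and 464.4 CPM at 24 h and 255.8, 256.0 and 293.5 CPM at 0 h. It had the smallest difference of the catalytic genes, at 0.43 ± 0.13 in HFD (adjusted p = 0.0265) and 0.62 ± 0.13 in chow (adjusted p = 0.00195). The HFD call ended without HFD 24 h replicate 1 or 2 or without HFD 0 h replicate 1 or 3 (highest adjusted p = 0.0961). It also ended with upper-quartile factors, with only the HFD libraries fitted and with the lane tag as a covariate (highest edgeR adjusted p = 0.11).

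Psmb2 (beta4) differed about as much as Psmb7. It had 150.8, 126.1 and 117.8 CPM in HFD 24 h against 77.8, 64.4 and 53.1 CPM in HFD 0 h, and in chow 158.6, 151.9 and 202.0 CPM at 24 h against 74.7, 85.3 and 92.9 CPM at 0 h. The log2 fold changes were 1.0 ± 0.16 in HFD (adjusted p = 0.000181) and 1.02 ± 0.16 in chow (adjusted p = 0.000113). Of the other structural beta subunits, Psmb3 rose by 1.07 ± 0.21 in HFD (adjusted p = 0.000987) and 0.94 ± 0.20 in chow (adjusted p = 0.00171). Psmb1 passed in HFD, at 0.67 ± 0.19 (adjusted p = 0.0125, and 0.0625 without HFD 24 h replicate 2), and stood at 0.48 ± 0.18 in chow (adjusted p = 0.0604). Psmb4 passed in neither diet, at 0.43 ± 0.16 in HFD (adjusted p = 0.0647) and 0.34 ± 0.16 in chow (adjusted p = 0.146).

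In the ATPase ring 5 of 6 genes were higher in HFD and 4 of 6 in chow, with medians of 0.59 and 0.70, and none reached 2-fold. Psmc2 (Rpt1) had 124.1, 143.4 and 151.7 CPM in HFD 24 h against 81.2, 93.1 and 82.7 CPM in HFD 0 h, and in chow 138.6, 135.0 and 174.1 CPM at 24 h against 81.5, 82.8 and 89.0 CPM at 0 h. Its groups did not overlap, with log2 fold changes of 0.70 ± 0.14 in HFD (adjusted p = 0.000808) and 0.82 ± 0.13 in chow (adjusted p = 0.000156). Psmc4 (Rpt3) had 113.8, 116.6 and 117.7 CPM in HFD 24 h against 83.3, 72.5 and 94.9 CPM in HFD 0 h, and in chow 123.0, 127.1 and 139.6 CPM at 24 h against 82.4, 78.5 and 83.3 CPM at 0 h. Both 24 h groups of Psmc4 were narrow, and the fold changes were 0.49 ± 0.13 in HFD (adjusted p = 0.00782, and 0.0533 with only the HFD libraries fitted) and 0.67 ± 0.12 in chow (adjusted p = 0.000473).

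Psmc5 (Rpt6) had 65.1, 69.0 and 68.6 CPM in HFD 24 h against 46.9, 43.5 and 22.5 CPM in HFD 0 h, and in chow 78.0, 76.0 and 70.5 CPM at 24 h against 47.3, 44.1 and 39.6 CPM at 0 h. The value of 22.5 CPM belongs to the shallow HFD 0 h replicate 3. With that library the HFD log2 fold change was 0.79 ± 0.18 (adjusted p = 0.00386), and without it 0.58 ± 0.13 (adjusted p = 0.0032). In chow the fold change was 0.78 ± 0.18 (adjusted p = 0.00337). Psmc6 rose by 0.74 ± 0.18 in HFD (adjusted p = 0.00594) and 0.72 ± 0.18 in chow (adjusted p = 0.00637). Psmc1 passed in HFD, at 0.40 ± 0.13 (adjusted p = 0.0284), a call that ended without HFD 0 h replicate 1 or 2 or HFD 24 h replicate 2 or 3 (highest adjusted p = 0.105), and stood at 0.34 ± 0.12 in chow (adjusted p = 0.056). The HFD call of Psmc1 also ended with upper-quartile factors and with only the HFD libraries fitted (highest edgeR adjusted p = 0.116). Psmc3 passed in neither diet, at 0.37 ± 0.14 in HFD (adjusted p = 0.0641) and 0.32 ± 0.14 in chow (adjusted p = 0.103).

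The base scaffolds did not move alike. Psmd1 (Rpn2) had 268.5, 281.6 and 307.6 CPM in HFD 24 h against 207.3, 176.8 and 132.6 CPM in HFD 0 h, and in chow 291.6, 284.5 and 322.7 CPM at 24 h against 191.6, 205.8 and 205.8 CPM at 0 h. It rose by log2 0.72 ± 0.14 in HFD (adjusted p = 0.00114) and 0.58 ± 0.14 in chow (adjusted p = 0.0059). Without HFD 0 h replicate 3, the HFD value of Psmd1 was 0.58 ± 0.13 (edgeR adjusted p = 0.00319). Psmd2 (Rpn1), the other large scaffold, had 212.7, 221.8 and 230.8 CPM in HFD 24 h and 211.2, 209.9 and 228.4 CPM in HFD 0 h, and in chow 221.3, 231.6 and 249.1 CPM at 24 h and 206.5, 202.1 and 201.0 CPM at 0 h. Its log2 fold changes were 0.04 ± 0.11 in HFD (adjusted p = 0.855) and 0.20 ± 0.11 in chow (adjusted p = 0.199). Both 95% intervals lie within 2-fold. The window of Psmd2, like that of Psmd11, holds an ETS match. Psmd1 and Psmd2 were not tested against each other. Exons of Psmd1 share 252 bases with Htr2b on the other strand and 301 with Gm21972 on the same strand. Exons of Psma5 (60 bases with 1700010K24Rik), Psmb5 (109 with Mir686), Psmc3 (215 with Slc39a13), Psmd3 (17 with Gm12356) and Psmd13 (342 with Sirt3) also overlap other genes, and their reads there cannot be told apart.

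Psmd4 (Rpn10), a receptor for ubiquitin chains, had 103.9, 102.1 and 92.3 CPM in HFD 24 h against 75.2, 60.8 and 80.9 CPM in HFD 0 h. In chow it had 115.3, 112.2 and 92.1 CPM at 24 h against 81.4, 76.2 and 74.8 CPM at 0 h. The groups did not overlap, and the log2 fold changes were 0.47 ± 0.14 in HFD (adjusted p = 0.0187) and 0.46 ± 0.14 in chow (adjusted p = 0.0177). The HFD call was lost with replicate 2 of HFD 0 h left out (adjusted p = 0.0891), and the chow call without chow 0 h replicate 2 or 3 or chow 24 h replicate 1 or 2 (highest adjusted p = 0.0701).

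The lid was uneven: 3 of its 8 genes were higher in each diet, with medians of 0.46 in HFD and 0.32 in chow. Psmd11 (Rpn6; chr11:80428615-80473248, plus strand), a lid subunit that clamps the regulatory particle to the core, had the smallest adjusted p of all members in both diets. It had 130.7, 142.4 and 128.3 CPM in HFD 24 h against 67.1, 63.9 and 50.4 CPM in HFD 0 h. In chow it had 179.0, 145.6 and 167.8 CPM at 24 h against 54.5, 64.5 and 64.0 CPM at 0 h. The 24 h and 0 h libraries were far apart in both diets, with log2 fold changes of 1.13 ± 0.14 in HFD (adjusted p = 9.2e-06) and 1.43 ± 0.14 in chow (adjusted p = 4.86e-07).

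Psmd7 (Rpn8), the partner of the deubiquitinase Psmd14, had 119.5, 121.9 and 121.3 CPM in HFD 24 h against 87.8, 82.6 and 82.3 CPM in HFD 0 h, and in chow 107.1, 116.8 and 114.0 CPM at 24 h against 88.5, 85.2 and 94.0 CPM at 0 h. It rose by log2 0.52 ± 0.11 in HFD (adjusted p = 0.00224) and 0.34 ± 0.11 in chow (adjusted p = 0.0329). The chow call ended without any 1 chow 0 h library or without chow 24 h replicate 2 or 3 (highest adjusted p = 0.141). It also ended with upper-quartile factors, no filter and the lane tag as a covariate (highest edgeR adjusted p = 0.297, with the tag). Psmd3 (Rpn3) had 178.1, 137.6 and 147.5 CPM in HFD 24 h and 95.4, 90 and 148.4 CPM in HFD 0 h, where replicate 3 overlapped the 24 h libraries, and in chow 194.2, 183.7 and 154.0 CPM at 24 h against 112.5, 103.5 and 91.0 CPM at 0 h. Its log2 fold change was 0.49 ± 0.18 in HFD (adjusted p = 0.0521), or 0.74 ± 0.15 without HFD 0 h replicate 3 (adjusted p = 0.00191), and 0.79 ± 0.18 in chow (adjusted p = 0.00238).

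Psmd14 (Rpn11), the deubiquitinase itself, had 64.4, 113.4 and 112.0 CPM in HFD 24 h and 59.3, 70.6 and 66.5 CPM in HFD 0 h. It passed in HFD, at 0.56 ± 0.20 (adjusted p = 0.044), although HFD 24 h replicate 1 lay within the 0 h range, and the call ended without any 1 of 7 libraries: each HFD 0 h library, HFD 24 h replicate 2 or 3, chow 0 h replicate 2 or chow 24 h replicate 1 (highest adjusted p = 0.168). The HFD call also ended with upper-quartile factors, limma-voom, the sum of a gene's identifiers and only the HFD libraries fitted (highest adjusted p = 0.0844, edgeR with upper-quartile factors). In chow the Psmd14 fold change was 0.27 ± 0.19 (adjusted p = 0.343). Psmd6, Psmd12 and Psmd13 passed in neither diet, with log2 fold changes of 0.27, 0.43 and 0.21 in HFD and 0.15, 0.38 and 0.30 in chow. Psmd8 (Rpn12) had 602.9, 607.0 and 399.5 CPM in HFD 24 h and 608.0, 678.1 and 616.0 CPM in HFD 0 h, and in chow 631.6, 598.1 and 524.0 CPM at 24 h and 632.0, 581.1 and 620.2 CPM at 0 h. Its fold changes of -0.24 ± 0.15 in HFD (adjusted p = 0.275) and -0.06 ± 0.15 in chow (adjusted p = 0.805) did not pass.

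Of the base chaperones, Psmd10 passed in both diets and Psmd5 and Psmd9 in neither. Psmd10 (gankyrin; chrX:140948425-140956711, minus strand), also known for binding the retinoblastoma protein and MDM2, had 65.7, 66.1 and 63.0 CPM in HFD 24 h against 27.7, 28.2 and 14.4 CPM in HFD 0 h. In chow it had 47.2, 58.0 and 78.4 CPM at 24 h against 29.6, 29.7 and 31.7 CPM at 0 h. The HFD 24 h libraries were tightly grouped and the chow 24 h libraries spread. The log2 fold change was 1.40 ± 0.21 in HFD (adjusted p = 5.89e-05), 1.22 ± 0.18 without HFD 0 h replicate 3 (adjusted p = 0.00011), and 1.01 ± 0.20 in chow (adjusted p = 0.000833). Psmd5 had 35.7, 44.0 and 42.6 CPM in HFD 24 h and 31, 37.1 and 22 CPM in HFD 0 h, and in chow 38.1, 39.0 and 46.1 CPM at 24 h and 39.2, 28.4 and 32.5 CPM at 0 h. The groups of Psmd5 overlapped, with fold changes of 0.40 ± 0.18 in HFD (adjusted p = 0.119) and 0.30 ± 0.17 in chow (adjusted p = 0.233). Psmd9 had 29.0, 28 and 21.4 CPM in HFD 24 h and 25, 29.7 and 28.8 CPM in HFD 0 h, and in chow 30.4, 31.5 and 24.2 CPM at 24 h and 26.7, 23.8 and 24.1 CPM at 0 h. Its fold changes were -0.09 ± 0.17 in HFD (adjusted p = 0.763) and 0.20 ± 0.16 in chow (adjusted p = 0.404), and 1849 bases of its exons overlap Gm26745 on the other strand.

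Counted by particle, 12 of the 14 core genes were higher in each diet, with medians of 0.79 in HFD and 0.89 in chow. Of the 17 genes of the regulatory particle, 10 were higher in HFD and 9 in chow, with medians of 0.49 and 0.38. The core genes summed to 1554.4 to 1813.1 CPM in HFD 24 h and 887.1 to 1112.5 CPM in HFD 0 h, and to 1707.6 to 2178.2 CPM in chow 24 h and 1099.7 to 1129.4 CPM in chow 0 h. All Psmc and Psmd genes, which adds the chaperones Psmd5, Psmd9 and Psmd10 to the regulatory particle genes, were summed as well. They came to 2549.4 to 2767.4 CPM in HFD 24 h and 2047.9 to 2156.2 CPM in HFD 0 h. In chow they came to 2755.9 to 2831.6 CPM at 24 h and 2074.7 to 2193.2 CPM at 0 h. Both sums kept the 24 h libraries above the 0 h libraries in each diet, and the core was not tested against the regulatory particle.

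The same members were mostly called in both diets. The 20 genes higher in both made up 87.0% of the HFD calls and 90.9% of the chow calls. Psmb1, Psmc1 and Psmd14 passed in HFD and not in chow, Psma3 and Psmd3 in chow and not in HFD, and Psma8, Psmb4, Psmc3, Psmd2, Psmd5, Psmd6, Psmd8, Psmd9, Psmd12 and Psmd13 in neither. Over the 35 members, the LPS log2 fold changes of the diets had a Pearson correlation of 0.89 and a rank (Spearman) correlation of 0.92, a description across genes that share their libraries. The test of the difference between diets called 0 of 35 members and 0 of 12641 genes (0.0%) with edgeR, at an unadjusted p under 0.05 it had 0 members and 297 genes, and DESeq2 and limma-voom called 0 members. Psmd11 (-0.30 ± 0.19, HFD minus chow LPS log2 fold change), Psmd10 (0.39 ± 0.28) and Psmd9 (-0.29 ± 0.23) had the smallest p, all with an adjusted p of 1.0. For 32 of 35 members the 95% interval of the difference lay within 2-fold.

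Without HFD 0 h replicate 3, 22 members were higher in HFD, 21 of them shared with all libraries, and the median was 0.56. Psmb6 (adjusted p = 0.062) and Psmd14 (adjusted p = 0.0808) were lost and Psmd3 was gained. Psma2 then stood at 0.95 ± 0.20, Psma3 at 0.52 ± 0.25, Psmc6 at 0.56 ± 0.16 and Psmb3 at 0.92 ± 0.19, all on the log2 fold change scale. That library was the lowest of the HFD 0 h libraries for 20 of the 34 subunit genes other than Psma8 and the highest for 6. With the lane tag as a covariate, 9 members passed in chow: 8 of the 22 (Psma1, Psma4, Psma5, Psma6, Psmc2, Psmc4, Psmc6 and Psmd11) and Psmd14, which was new. Of all genes tested, 6.91% were then called higher. The median fold change was then 0.71, and the median SE 0.28, against 0.16 without the tag. All chow 24 h and no chow 0 h libraries carry the tag, so the chow difference then rests on HFD 24 h replicate 1 to tell tag and LPS apart. In HFD the covariate left 23 members higher, 22 of them shared.

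No member passed in either diet comparison. In HFD 24 h against chow 24 h, edgeR called 0 of 35 members, against a background of 0.00791% of genes higher and 0.0% lower. Unadjusted, 2 members and 993 of the 12641 genes had a p under 0.05, and DESeq2 and limma-voom called 0 members. The median log2 fold change was -0.10, and -0.04 without chow 24 h replicate 3. Psmb2 stood lowest, at -0.38 ± 0.16 (edgeR adjusted p = 0.61), with HFD libraries at 150.8, 126.1 and 117.8 CPM below all chow libraries at 158.6, 151.9 and 202.0 CPM. Psmd11, likewise without overlap, stood at -0.29 ± 0.13 (edgeR adjusted p = 0.624), and Psmd14 at 0.39 ± 0.19 (edgeR adjusted p = 0.635). In all, 1 member lay above and 4 below without overlap, against 6.28% and 5.98% of all genes.

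In HFD 0 h against chow 0 h, edgeR also called 0 of 35 members, against a background of 0.0% of genes higher and 0.087% lower, with 1 member and 778 of the 12641 genes at an unadjusted p under 0.05 and 0 members called by DESeq2 or limma-voom. The median was -0.08. It was -0.01 without the shallow HFD 0 h replicate 3, where 0 members were called too, and -0.05 without chow 0 h replicate 3. Psmb2 stood at -0.35 ± 0.16 (edgeR adjusted p = 0.801), Psma8 at 0.84 ± 0.44 (edgeR adjusted p = 0.839) and Psmb1 at -0.34 ± 0.19 (edgeR adjusted p = 0.855). Without overlap, 2 members lay above and 4 below, against 5.87% and 6.35% of all genes. At each time the 95% interval of the diet difference lay within 2-fold for 34 of 35 members, Psma8 being the exception.

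**Figure D3:**
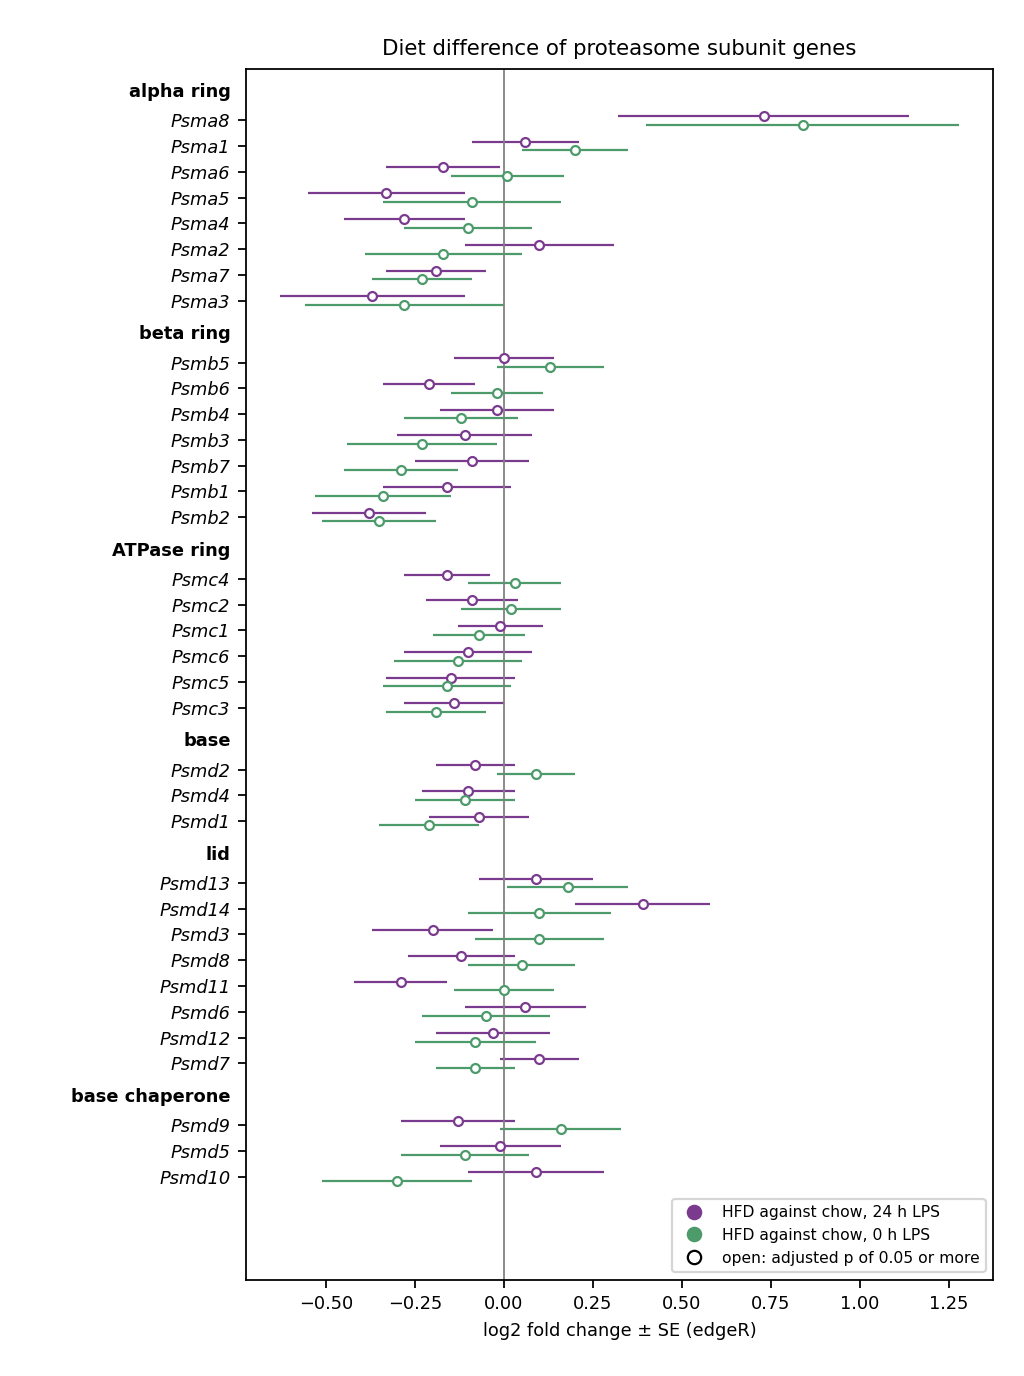
Log2 fold change of HFD against chow for the 35 members by role (points, edgeR; bars, SE), at 24 h and at 0 h of LPS. All points are open, since 0 members had an adjusted p under 0.05, and apart from Psma8 the values lie between -0.38 and 0.39.

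Per length, the members differed far more between genes than with LPS or diet. CPM per kilobase of transcript had a median of 71.4 in HFD 24 h and 44.2 in HFD 0 h over the 34 genes without Psma8, and 72.7 in chow 24 h and 45.8 in chow 0 h. Psmb6 and Psmd8 were the highest in every group. Psmb6 stood at 445.8 ± 62.8 CPM per kilobase in HFD 24 h and 331.1 ± 17.2 in HFD 0 h, and at 516.9 ± 56.6 in chow 24 h and 336.4 ± 27.2 in chow 0 h (SD, n = 3 each). Psmd8 stood at 354.8 ± 78.5 CPM per kilobase in HFD 24 h and 419.3 ± 25.4 in HFD 0 h, and at 386.6 ± 36.4 in chow 24 h and 404.2 ± 17.6 in chow 0 h. Psmd8 thus led in both 0 h groups and Psmb6 in both 24 h groups, and in HFD 24 h their means lay within the combined SDs. The next in chow 0 h were Psma7, at 108.1 ± 11.8 CPM per kilobase, and Psmb2, at 98.1 ± 10.7, which did not differ beyond their spread. The lowest apart from Psma8 were Psmd9 at 9.58 ± 0.61, Psma5 at 7.92 ± 0.805 and Psmd5 at 7.58 ± 1.24 CPM per kilobase in chow 0 h, of which Psma5 and Psmd5 lay within their spread of each other. These levels rest on 1 RefSeq transcript per gene and its length.

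The inducible catalytic subunit genes, outside the members, rose more than the genes they replace. Psmb8 rose by log2 2.42 ± 0.14 in HFD (adjusted p = 7.73e-10) and 2.24 ± 0.13 in chow (adjusted p = 1.33e-09), Psmb9 by 2.51 ± 0.21 (adjusted p = 8.78e-08) and 2.47 ± 0.20 (adjusted p = 4.96e-08), and Psmb10 by 2.54 ± 0.15 (adjusted p = 9.3e-10) and 2.92 ± 0.15 (adjusted p = 1.82e-10). As both partners rose, the ratio of each pair per kilobase was compared. The Psmb8 to Psmb5 ratio was 2.59, 3.23 and 3.22 in HFD 24 h and 0.763, 0.835 and 1.02 in HFD 0 h, and 2.73, 2.97 and 3.43 in chow 24 h and 1.15, 1.04 and 0.995 in chow 0 h. The Psmb10 to Psmb7 ratio was 2.43, 2.35 and 2.24 in HFD 24 h and 0.655, 0.845 and 1.35 in HFD 0 h, and 2.88, 2.78 and 2.35 in chow 24 h and 0.745, 0.628 and 0.606 in chow 0 h. Psmb9 stayed below Psmb6 throughout, with ratios of 0.136, 0.16 and 0.139 in HFD 24 h and 0.0235, 0.0352 and 0.0512 in HFD 0 h, and 0.12, 0.157 and 0.109 in chow 24 h and 0.0346, 0.0391 and 0.0329 in chow 0 h. No 24 h ratio overlapped the 0 h ratios of its diet in any pair.

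**Figure D4:**
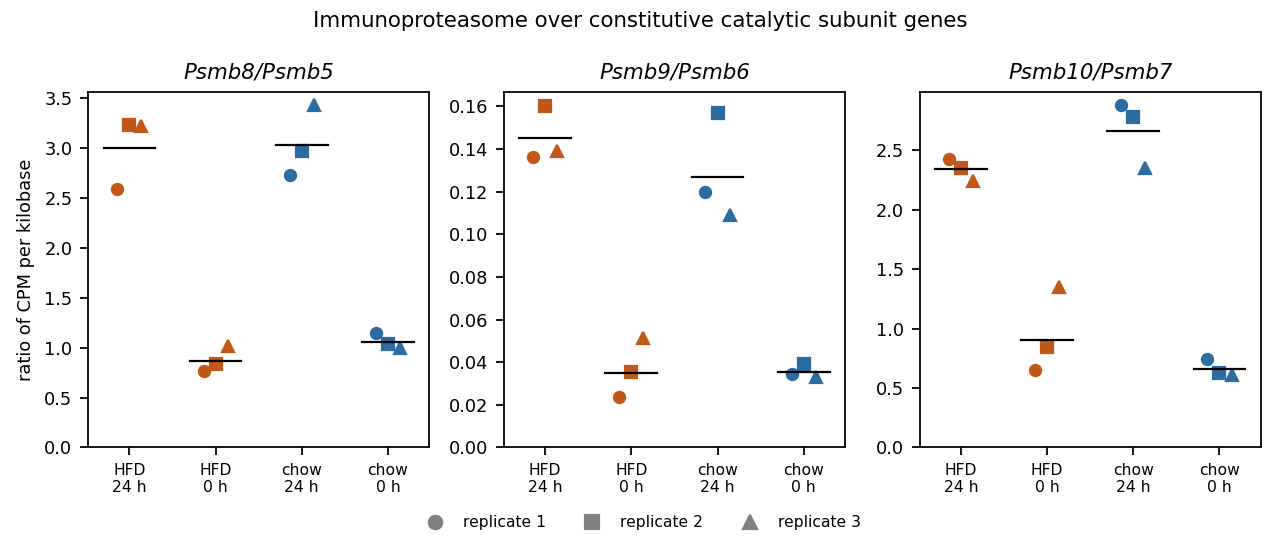
Ratio of CPM per kilobase of each inducible catalytic subunit gene over the constitutive one it replaces, in each library by group and replicate, with the geometric mean as a line. All 24 h ratios lie above the 0 h ratios of the same diet, with geometric means of 3.0 and 0.865 in HFD and 3.03 and 1.06 in chow for Psmb8 over Psmb5.

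Averaged over the diets, the log2 ratio at 24 h minus that at 0 h was 1.65 for Psmb8 over Psmb5, 1.95 for Psmb9 over Psmb6 and 1.69 for Psmb10 over Psmb7. A two-sided exact permutation test of times within diets, with 400 arrangements, gave p = 0.005 for each, the smallest it can give, and an adjusted p of 0.005 over the 3 pairs. By diet, the differences were 1.79 in HFD and 1.52 in chow for the first pair, 2.05 and 1.84 for the second, and 1.37 and 2.02 for the third. The shallow HFD 0 h replicate 3 had the highest HFD 0 h ratio in each pair (1.02, 0.0512 and 1.35) and so lowered the HFD differences. Whether the diets differ in these ratios was not tested. The averages over the diets lay between 1.57 and 2.09 whichever library was left out.

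Of 34 genes of the wider pathway outside the members, 32 were tested: 12 were higher and 1 lower in HFD, and 13 higher and 2 lower in chow. The shares over all genes were 12.7% higher and 12% lower in HFD, and 13.7% and 12.9% in chow. Among the activators, Psme1 and Psme2, which form the interferon-induced 11S cap, rose most, Psme1 by log2 2.13 ± 0.17 in HFD (adjusted p = 4.14e-08) and 2.02 ± 0.16 in chow (adjusted p = 6.19e-08), and Psme2 by 2.03 ± 0.15 (adjusted p = 2.88e-08) and 1.81 ± 0.15 (adjusted p = 5.22e-08). In all, 4 of 5 genes of that list were higher in each diet. Psme4 rose by 0.57 ± 0.14 in HFD (adjusted p = 0.00491) and 0.43 ± 0.14 in chow (adjusted p = 0.027), where the call was lost without any 1 of the chow 0 h libraries or replicate 3 of chow 24 h (highest adjusted p = 0.0973). Psme3 rose by 0.35 ± 0.12 in HFD (adjusted p = 0.0426), a call lost on leaving out any 1 of 8 libraries (highest adjusted p = 0.152): each HFD 24 h and chow 0 h library, replicate 1 of HFD 0 h and replicate 1 of chow 24 h. In chow Psme3 rose by 0.52 ± 0.12 (adjusted p = 0.00344). Pomp, the chaperone of core maturation, rose by 0.77 ± 0.16 in HFD (adjusted p = 0.00145) and 0.86 ± 0.16 in chow (adjusted p = 0.000471). Of the 5 core assembly chaperones, Pomp and Psmg2 passed in HFD, and Pomp in chow. Psmg2 stood at 0.77 ± 0.25 in HFD (adjusted p = 0.032), a call that ended without HFD 0 h replicate 1 or 3 or HFD 24 h replicate 1 or 3 (highest adjusted p = 0.176), and at 0.17 ± 0.23 in chow (adjusted p = 0.659).

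Of the 26S subunits named outside the Psm symbols, Adrm1, the ubiquitin receptor Rpn13, stood at 0.55 ± 0.21 in HFD (adjusted p = 0.0628) and rose by 0.77 ± 0.20 in chow (adjusted p = 0.00767, and 0.8 with the lane tag as a covariate). Sem1 passed in neither diet, and Paaf1 was not analysed here. Among the ubiquitin processing and shuttle genes, Ubqln1 stood at 0.31 ± 0.12 in HFD (adjusted p = 0.0673) and was higher in chow, by 0.49 ± 0.12 (adjusted p = 0.00453). Ddi2, the protease that activates Nfe2l1, was lower in both. It had 90, 91.6 and 88.1 CPM in HFD 24 h against 159.4, 137.4 and 125.9 CPM in HFD 0 h, and 86.7, 81.2 and 85.6 CPM in chow 24 h against 135.4, 133.6 and 153.3 CPM in chow 0 h. Its log2 fold changes were -0.65 ± 0.12 in HFD (adjusted p = 0.000655) and -0.74 ± 0.12 in chow (adjusted p = 0.000189), opposite in sign to the members' medians.

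Nfe2l1, the factor known to raise proteasome genes when the proteasome is inhibited, stood at 0.45 ± 0.14 in HFD (adjusted p = 0.0265), a call that ended without HFD 0 h replicate 1 or 2 or HFD 24 h replicate 1 or 3 (highest adjusted p = 0.0939), and at 0.17 ± 0.14 in chow (adjusted p = 0.422). Nfe2l2, which binds antioxidant response elements, stood at -0.32 ± 0.14 in HFD (adjusted p = 0.119) and was lower in chow, at -0.47 ± 0.14 (adjusted p = 0.0205), a call that ended without chow 0 h replicate 2 or 3 or chow 24 h replicate 1 or 2 (highest adjusted p = 0.14). Ngly1 and Vcp passed in neither diet. Among the ubiquitin genes, Ubb was higher in HFD, at 0.49 ± 0.16 (adjusted p = 0.0294), a call that ended without HFD 0 h replicate 1 or 2 or HFD 24 h replicate 1 or 2 (highest adjusted p = 0.148). In chow Ubb was higher by 0.76 ± 0.15 (adjusted p = 0.0011). Psmb11, the thymus subunit, had 0 counts in every library. In neither diet comparison did any of the 32 genes pass.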

How the data were processed

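Libraries were made with a NuGen Ovation Universal kit from RNA of a Qiagen RNeasy mini kit, as the labels' protocols state. CASAVA 1.8.2, the aligner STAR 2.5.2b and the build mm10 are named, without settings, per the submitters' processing notes. Read counter, annotation and strand setting: not given in the sources used here. The deposited values are raw read counts per RefSeq identifier, whole and not normalized, for 35745 identifiers in 12 columns.

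Symbols came from RefSeq (35440 identifiers) and GENCODE vM21 tables (188), and 117 had none. Each gene kept the identifier with the highest mean count. Genes passing filterByExpr by group (12641) were tested by quasi-likelihood (robust glmQLFit, glmQLFTest; edgeR 4.0.16, R 4.3.3) with TMM factors in 1 model of 4 group means over 12 libraries, and Benjamini-Hochberg adjustment over all genes at 0.05. The common biological CV of edgeR came to 18%. The SE is the absolute log2 fold change over the square root of F, and 95% intervals use the t distribution with 8 residual degrees of freedom. CPM are counts relative to the TMM-scaled library total. Levels per kilobase use the length of the GENCODE transcript paired with the identifier. The scripts were tested on simulated counts.

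Members and lists were chosen with earlier results of these data known. Values in every library are given for the catalytic subunits and for up to 3 members of each role with the smallest adjusted p in either LPS comparison. In the diet comparisons and their interaction the 3 smallest p are named, and up to 3 genes from each pathway list, some of which are not reported here. Psmd8, Psmd14 and Ddi2 values by library, and the other members, are given beyond this to account for all. Whether the 3 libraries of a group stem from different mice is not in the labels, so p-values reflect their spread alone, which may be technical. Within each diet the labels reuse the same numbers at 24 h and 0 h, and whether these mark paired cells is not settled. Correlations of the deviations of same-numbered libraries were 0.301, 0.091 and 0.346 in chow and 0.055, 0.263 and 0.029 in HFD. The best match had the same number for chow replicates 1 and 3 and HFD replicates 2 and 3. It had another number for chow replicate 2 and HFD replicate 1. The main test used no pairing. Alternatives were RLE and upper-quartile factors, other filters, DESeq2 1.42.0, voom in limma 3.58.1, only the groups compared, a replicate block, the lane tag, the sum of a gene's identifiers, and each library left out.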

Additional observations from a re-analysis of the deposited data

How the results depend on the processing

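The direction of every member and pathway gene called with LPS was the same under all alternatives run. The count of members higher was 23 in HFD and 22 in chow, and 0 were lower under any alternative. Leaving out each library in turn gave 20 to 28 in HFD, with medians of 0.56 to 0.65, and 18 to 24 in chow, with medians of 0.54 to 0.69. Upper-quartile factors gave 20 and 21, DESeq2 27 and 24, limma-voom 23 and 23, no filter 27 and 22, and only the groups compared 18 and 23. The lane tag as a covariate brought the chow count to 9, with wider errors, and left 23 in HFD. The replicate block gave 28 in HFD and 24 in chow, and 0 for diet and for the interaction. The 28 and 24 count as paired results only if libraries that share a number belong together, which is not settled. Of the called members, 17 of 23 in HFD and 18 of 22 in chow were called whichever library was left out, and 16 and 8 under every alternative. The lane tag also ended the chow calls of Adrm1, Nfe2l2, Psme3, Ubb and Ubqln1 (adjusted p between 0.163 and 0.8), and the HFD calls of Psmb6, Nfe2l1, Psme3, Psmg2 and Ubb. The cause was not tested. Diet counts were 0 under all alternatives, with left-out medians of -0.12 to -0.04 for diet at 24 h and -0.12 to -0.01 at 0 h. Interaction counts were 0 under all alternatives but the fit of only the groups compared, where the interaction was not run. Fitting only the groups compared also ended the HFD calls of the members Psmb6, Psmc1, Psmc4, Psmd4 and Psmd14. The same fit ended the HFD calls of Nfe2l1, Psme3, Psmg2 and Ubb, as did upper-quartile factors, which also ended the chow call of Psme4. The immune to constitutive ratios differed at p of 0.01 or less with any 1 library left out. Depth limits HFD 0 h replicate 3 most, where Psma8 rests on 7 counts and Psma3 and Psmb3 on 17.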
